A study of Mus musculus with 6 samples.

Results

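Posterior HoxA genes lie at the 5′ end of the HoxA cluster on mouse chromosome 6. Hoxa13, Hoxa11, Hoxa10, Hoxa9 and their neighbour Evx1 were taken by name, as 5 of the 21701 protein-coding genes considered, and were followed through all 8 peak lists of the series. The windows held each gene body and 10 kb on either side of its start. Because the 4 Hoxa genes are close together, their windows merged into 1 stretch of 49.8 kb (chr6:52221089-52270880, mm10), and Evx1 gave a separate window of 20001 bp (chr6:52303498-52323498). Neighbouring Hoxa genes therefore share many of their regions and are not independent observations.

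The 6 samples were wild-type mouse forelimb buds of strain B6CBAF1 at stage E12.5, with no treatment or engineered allele. The distal forelimb (DFL) is the future hand, and the proximal forelimb (PFL) holds the future forearm and upper arm. H3K27ac (histone acetylation found at promoters and enhancers in use), H3K27me3 (the Polycomb mark) and CTCF (a DNA-binding protein at many chromatin domain borders) were each profiled by ChIP-seq in 1 library per piece, from pooled tissue. The other 2 lists were of the transcription factors HOXA13 and HOXD13 (together HOX13) in whole forelimb buds of an earlier stage and were not tied to any of the 6 samples. There were no replicates, so no p-value was computed and all intervals cover counting error only.

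Hox genes of a cluster are activated in order along the limb, and those at the 5′ end act most distally. Hoxa13 acts in the digits together with Hoxd13, Hoxa11 is known for its forearm domain, and Hoxa10 and Hoxa9 act more proximally. Evx1 encodes an even-skipped-related homeodomain factor best known from spinal cord interneurons. Noncoding genes in the same stretch include Hoxa11os, which is transcribed antisense to Hoxa11, and Hottip, which starts upstream of Hoxa13 and is transcribed away from it. H3K27me3 marks the parts of a Hox cluster that are kept silent, and CTCF sites within the clusters separate neighbouring chromatin domains.

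The gene records place Hoxa13 at chr6:52257694-52260880, Hoxa11 at chr6:52242106-52245810, Hoxa10 at chr6:52231197-52240854 and Hoxa9 at chr6:52223100-52231089, all on the minus strand. Evx1 is on the plus strand at chr6:52313498-52318378, and its start lies 52.6 kb from that of Hoxa13. RefSeq places the Hoxa9 start at chr6:52227370, inside the record used here, and gives Hoxa10 a second start at chr6:52234939. Starts, gene bodies and windows below follow the gene records, so those of Hoxa9 and Hoxa10 depend on that choice. Distances below are given in kb from the Hoxa13 start, negative toward Hoxa9 and positive toward Evx1.

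**Figure D1:**
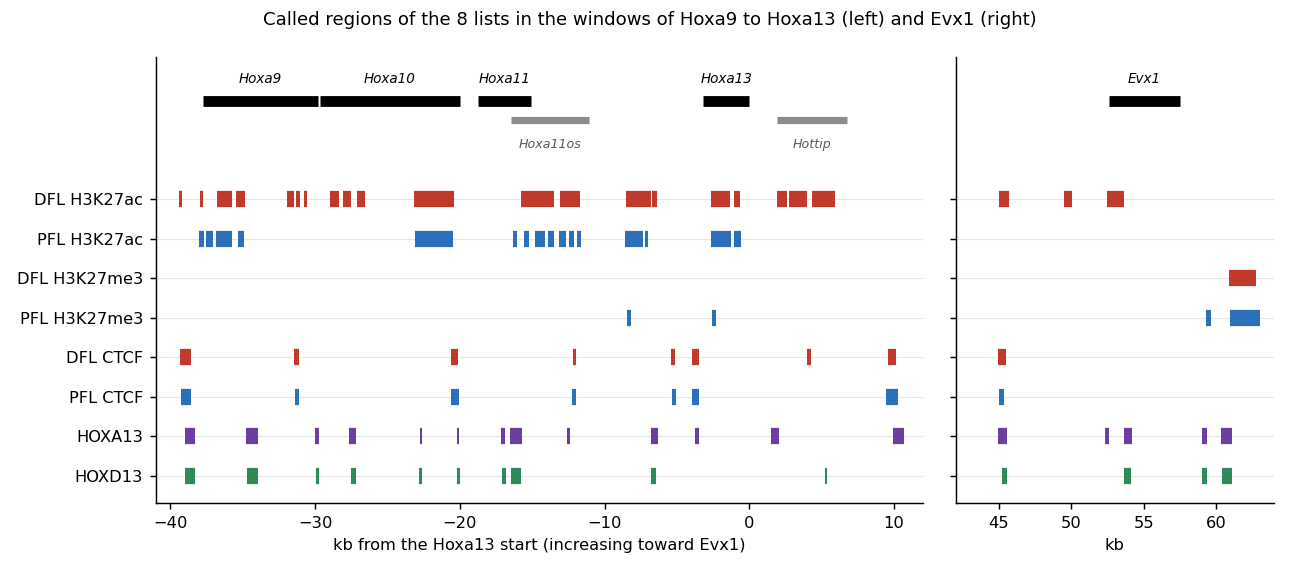
Each bar is a called region of 1 of the 8 lists, drawn to scale by its distance in kb from the Hoxa13 start, with the 5 genes in black and Hottip and Hoxa11os in grey. In the left panel H3K27ac regions cover 18.6 kb in DFL and 11.1 kb in PFL, and in the right panel the 3 H3K27ac regions around Evx1 are in the DFL list.

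HOX13 sites and CTCF sites are shown first as sequence, since they carry the binding results. Windows reached 50 bp to either side of the summit of each region. They were searched on both strands for CAATAAA and CGTAAA, letters taken for HOX13, and for CNAGNNGGC, the core letters taken for CTCF. Matched letters are in capitals, and a match on the minus strand appears as its reverse complement (TTTATTG for CAATAAA). All sequences are mm10, plus strand. The HOX13 windows below are the strongest HOX13 region outside untranslated sequence, which lies in the Hoxa11 intron over a Hoxa11os exon, and the regions outside untranslated sequence that hold a match.
Hoxa11 intron and Hoxa11os exon, chr6:52244776-52244876: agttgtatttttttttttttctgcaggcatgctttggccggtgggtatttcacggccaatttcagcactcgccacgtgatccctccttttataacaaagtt
Hoxa10 intron, chr6:52233450-52233550: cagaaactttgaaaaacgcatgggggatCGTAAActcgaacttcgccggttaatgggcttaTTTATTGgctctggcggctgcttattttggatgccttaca
Hoxa10 intron nearer the start, chr6:52238135-52238235: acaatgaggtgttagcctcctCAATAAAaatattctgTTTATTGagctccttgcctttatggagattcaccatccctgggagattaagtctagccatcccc
Evx1 upstream, chr6:52313242-52313342: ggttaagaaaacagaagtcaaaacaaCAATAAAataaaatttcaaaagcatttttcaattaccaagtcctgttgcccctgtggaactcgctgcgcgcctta
Evx1 downstream, chr6:52321499-52321599: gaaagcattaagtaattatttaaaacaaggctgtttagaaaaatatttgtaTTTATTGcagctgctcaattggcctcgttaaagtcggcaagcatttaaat

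The CTCF windows below are the region between Hoxa11 and Hoxa13 that holds a match, the region in the Hottip intron that was called in DFL alone, and the region upstream of Evx1.
9530018H14Rik exon, chr6:52257088-52257188: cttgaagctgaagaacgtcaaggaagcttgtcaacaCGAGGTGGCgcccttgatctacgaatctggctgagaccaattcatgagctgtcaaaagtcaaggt
Hottip intron, chr6:52264927-52265027: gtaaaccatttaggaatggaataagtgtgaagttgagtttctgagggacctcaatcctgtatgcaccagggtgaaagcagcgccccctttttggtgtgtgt
Evx1 upstream CTCF, chr6:52306013-52306113: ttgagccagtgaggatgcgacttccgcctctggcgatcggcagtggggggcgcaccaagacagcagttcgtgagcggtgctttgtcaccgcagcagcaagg

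To compare the active mark between the pieces, the length covered by H3K27ac regions was measured first. Together the windows held 23 regions in DFL, over 21.0 kb, and 16 in PFL, over 11.1 kb, so DFL regions made up 65.5% of the summed length. Over the Hoxa13 window, DFL regions covered 7.36 kb and PFL regions 3.29 kb. The Hoxa11 window had 8.52 kb in DFL and 6.87 kb in PFL. Hoxa10 had 8.12 kb and 5.41 kb, and Hoxa9 had 7556 bp and 5004 bp, in the same order. Around Evx1, DFL regions covered 2.38 kb and no PFL region was called. A gene was called DFL-leaning when its DFL length was at least 1.5 times its PFL length, among genes with at least 500 bp in either piece. By that rule 4 of the 5 genes leaned to DFL and 0 to PFL, against 3.78% of 14826 genes leaning to DFL and 17.6% leaning to PFL. Hoxa10 and Hoxa9 passed the rule narrowly, with 1.51 for Hoxa9, and Hoxa11, at 1.24, did not pass it. Only Evx1 leaned to DFL under each of the 7 alternatives tried. Its nearest PFL region lay 22.0 kb from its start, so no alternative could add PFL length and this outcome was largely fixed in advance. Over gene bodies alone 2 of the 5 genes leaned to DFL, and Hoxa13 and Hoxa9 did not. Within 20 kb of the start Hoxa10 and Hoxa9 lost the call and Hoxa11 gained it. Hoxa10 also lost it when regions within 500 bp were merged. With a −log10 q of at least 5, Hoxa9 lost it and Hoxa11 gained it. With a fold of at least 2 only Evx1 and Hoxa13 reached the minimum length, and Hoxa13 then leaned to PFL.

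**Figure D2:**
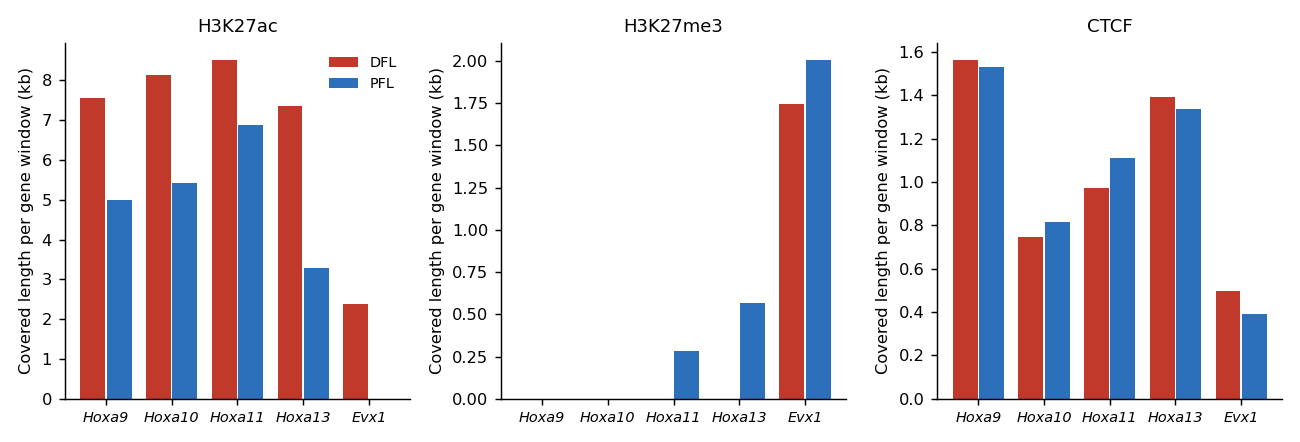
Bars give the length in kb covered by called regions in the window of each gene, for DFL (red) and PFL (blue), with 1 library per bar and separate axes for the 3 marks. H3K27ac is longer in DFL for all 5 genes. H3K27me3 is at 0 in DFL for the 4 Hoxa genes, as it is for most genes. CTCF is of similar length in the pieces, with 0.973 kb in DFL and 1.11 kb in PFL at Hoxa11.

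Within the gene bodies, DFL regions were the longer in 4 of the 5 genes, and Hoxa13 had slightly more in PFL. In Hoxa13 itself, H3K27ac regions covered 55.9% of the body in DFL (1781 bp) and 57.4% in PFL (1829 bp), and the longer DFL total came from the flanks. The Evx1 body was covered to 20.2% in DFL (987 bp) and had no PFL region. In Hoxa10 they covered 45.9% in DFL and 27.4% in PFL, and in Hoxa9 33.5% and 26.6%. The Hoxa11 body was covered to 18.8% in DFL and 17.4% in PFL.

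Of the 23 DFL regions, 14 were called in DFL alone, where 26.7% of all DFL H3K27ac regions were DFL-only. Of the 16 PFL regions, 2 were called in PFL alone, where 38.1% of all PFL regions were PFL-only. The PFL-only regions lay over the Hoxa9 untranslated region and in the Hoxa11 intron (chr6:52244532-52244792, 367 fragments). The DFL-only regions fell into separate groups. Around Hottip there were 3, centred from 2.24 to 5.13 kb upstream of the Hoxa13 start, with summit pileups of 313, 302 and 261 fragments. Near Evx1 there were another 3. A further 6 lay between the Hoxa9 exons and the Hoxa10 coding exon, from -31.7 to -26.8 kb, and the last 2 lay over the Hoxa7 untranslated region and at -6.57 kb. The pileup and local background of each DFL-only region were carried over to PFL, relative to the lowest background of each list. Every one of the 14 would then have exceeded the weakest −log10 p of the PFL list (3.05). That concerns depth alone, because the DFL local background was kept. At the 6 regions between Hoxa9 and Hoxa10 the flanking PFL summits had higher local backgrounds, given below. Whether these 6 could have been called over the PFL background was not tested.

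The stretch between Hoxa9 and Hoxa13 was very densely covered by H3K27ac fragments in both pieces, which bears on how regions were called there. For each summit, the pileup and local background were worked out from fold and −log10 p. Both were divided by the lowest background of their list, and are called scaled below. With no control this lowest value is the caller's genome-wide rate, a measure of the depth of the library. The caller takes local background from about 10 kb of the same library, so it reflects the density of that library's fragments over the surrounding 10 kb. With no control, fragments of the mark and other fragments are not told apart in it. At Hoxa9 and Hoxa10 the scaled local background reached 22.8 in DFL, the third highest of 82135 summits, and 24.99 in PFL, the eighth highest of 97851. The medians over all regions were 1.28 and 1.24. Pileups at the Hoxa gene summits ran from 58.1% to 95.7% of the highest pileup of the DFL list (394 fragments) and from 33.0% to 97.6% of that of the PFL list (409 fragments). Since the authors kept 1 read per position, a pileup has a ceiling, and differences between strong sites near it are compressed.

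Across this stretch the pieces crossed over. From Hoxa9 to Hoxa11os, 14 DFL summits had a PFL summit within 200 bp. The scaled local background was lower in DFL at 14 of 14, with DFL values of 12.9 to 18.9 and PFL values of 17.6 to 24.99. Neighbouring pairs share much of the same 10 kb background and come from 1 library per piece. Pairs counted here and below are therefore not independent readings. The DFL to PFL ratio of the background was 0.63 to 0.88, below the median of 0.949 over 41200 loci called in both pieces. Scaled pileups at the same summits had ratios of 0.74 to 0.97, which straddle the median of 0.902 over all loci. The exact interval excluded 1 at 6 of the 14, and for the lowest ratio it was 0.62 to 0.88. Since the median over all loci is itself below 1, excluding 1 does not set these summits apart from the rest. In the 2 pairs between Hoxa11os and Hoxa13 the background ratio was 1.19 and 1.27. Inside Hoxa13, at 3 pairs, the background was 16.5 to 16.6 in DFL and 6.09 to 7.57 in PFL, and the ratio lay between 2.18 and 2.72.

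Hoxa13 stood at the upper end of the whole comparison in this respect. The locus toward the end of its gene body (chr6:52258221-52259613) had a background ratio of 2.52. The locus over its first exon (chr6:52259814-52260291) had a ratio of 2.72. Each lay at the 99.9th percentile of loci called in both pieces. Of the 9 loci of these windows that were called in both pieces, the background was at least 1.5 times higher in DFL at 2, both in Hoxa13, and at least 1.5 times higher in PFL at 1, in Hoxa10. Over all loci these shares were 2.06% and 4.13%. Summit pileups over the first exon were 353 fragments in DFL and 235 in PFL, for a scaled ratio of 1.43 (exact 95% interval 1.21 to 1.69). At the locus toward the gene end they were 315 and 186, a ratio of 1.61 (1.34 to 1.94), which was the only one of the 9 at or above 1.5. By pileup, 5.53% of all loci were at least 1.5 times higher in DFL and 13.5% in PFL.

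Fold enrichment had the opposite order to these levels. Over the first exon of Hoxa13 the fold was 1.70 in DFL and 3.22 in PFL, and it was lower in DFL at 3 of 3 pairs in the gene. From Hoxa9 to Hoxa11os the fold was higher in DFL at 14 of 14 pairs. At the Hoxa10 locus (chr6:52237726-52240476), for example, the fold was 1.95 in DFL and 1.36 in PFL, while the scaled local background was 15.4 in DFL and 24.6 in PFL. The 6 DFL-only regions between Hoxa9 and Hoxa10 lay in a gap of the PFL list whose flanking PFL summits had local backgrounds of 24.1 and 24.99, above those of the DFL regions themselves (21.8 to 22.8). At these 6 regions a call in DFL alone was thus not accompanied by a lower PFL background on either side. At the 3 Hottip regions the DFL background was 12.9 to 17.2, and the nearest PFL summit, in Hoxa13, had 6.09.

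**Figure D3:**
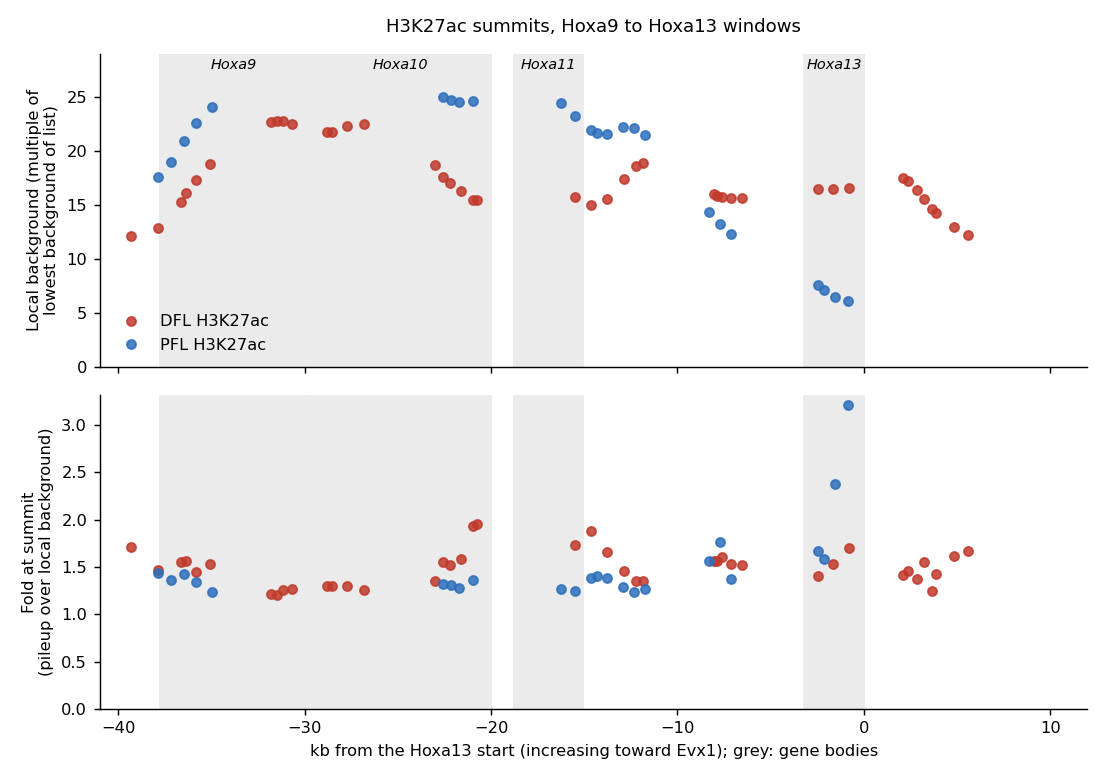
Points are H3K27ac summits in DFL (red) and PFL (blue) by distance in kb from the Hoxa13 start, with the scaled local background above and the fold enrichment below. At paired summits in the upper panel PFL lies above DFL from Hoxa9 to Hoxa11os and DFL above PFL over Hoxa13 (16.5 to 16.6 against 6.09 to 7.57), and in the lower panel the order in these stretches is the opposite.

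Evx1 carried H3K27ac at a far lower level than the Hoxa genes. The region over its start (chr6:52313322-52314484) had a summit pileup of 87 fragments in DFL, 6.96 times the lowest background, with a fold of 3.66. The other 2 DFL regions, at chr6:52310370-52310921 in Evx1os and at chr6:52305882-52306544, had pileups of 57 and 45 fragments. All 3 were called in DFL alone, and the nearest PFL region lay 22.0 kb from the Evx1 start. Scaled pileups of 3.60 to 6.96 were close to the median of 4.08 over all DFL regions, whereas DFL regions over the Hoxa genes ran from 18.9 to 30.2.

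The pieces were mixtures of cells, and fewer cells with a mark cannot be told apart from less of it per cell. H3K27ac lay within 2 kb of the start of 0 of 5 muscle genes in DFL and 4 of 5 in PFL, and of 3 of 4 ectoderm genes in DFL and 1 of 4 in PFL. Of the distal limb genes, 6 of 7 were marked in DFL and 7 of 7 in PFL, and of the proximal limb genes 3 of 4 in each. Cartilage genes were marked at 3 of 3 in each, and endothelial genes at 3 of 4 in each. Blood genes were marked at 1 of 4 in DFL and 2 of 4 in PFL, and nerve and glia genes at 0 of 4 in either. The part of these cells in the results above was not tested.

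H3K27me3 regions were few in these windows. DFL had 1, downstream of Evx1, which was shared with PFL, as all but 9.05% of DFL H3K27me3 regions were. PFL had 4, of which 3 were PFL-only, where 44.0% of all PFL H3K27me3 regions were PFL-only. The scaled local background at the 4 PFL regions was 9.34 to 21.3, where the median of the PFL list was 3.13. At the DFL region it was 8.19, where the DFL median was 3.66. Few called regions therefore do not show that the mark was scarce around them. Hoxa10 and Hoxa9 had no H3K27me3 region in either piece. A length of 0 ranked 4901st of 21701 genes in DFL and 5987th in PFL, so most genes had none. Hoxa13 had none in DFL and 2 in PFL. The first (chr6:52258303-52258586) lay over its untranslated region with a pileup of 92 fragments and a fold of 1.73, and the second (chr6:52252417-52252699) lay toward Hoxa11 with 76 fragments and a fold of 1.70. In PFL, Hoxa13 thus had regions of both H3K27ac and H3K27me3. Scaled to the shallower DFL library, the first would have reached a −log10 p of 4.42, above the lowest of the DFL list (3.84), and the second only 3.74, so that a site of that level was not detectable in DFL at this depth. By H3K27me3 length Hoxa13 was called PFL-leaning, as were 44.1% of 5270 genes, where 2.35% leaned to DFL. Only 2 of the 5 members, Hoxa13 and Evx1, reached the minimum of 500 bp, and Evx1 leaned to neither piece.

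Downstream of Evx1, H3K27me3 was called in both pieces, over a locus (chr6:52321751-52323922) with a pileup of 71 fragments in DFL and 152 in PFL. Relative to the lowest background of each library these were 23.2 and 32.0, a ratio of 0.72 (exact 95% interval 0.54 to 0.97). The median ratio over all loci, 0.942, lay inside that interval. Fold ran the other way, at 2.76 in DFL and 1.95 in PFL, and was higher in DFL at 3 of 3 pairs of summits. The scaled local background was 8.19 in DFL and 16.4 in PFL, a ratio of 0.50, at the 1.12th percentile of 7351 loci, whose median was 0.895. A background at least 1.5 times higher in PFL was found at 6.38% of loci. A second region, at chr6:52320200-52320522, was called in PFL alone, with 160 fragments. Covered length showed less of this, with 1.75 kb in DFL and 2.01 kb in PFL. In the Evx1 window H3K27ac was thus called in DFL alone, over the start and upstream, and the local background of H3K27me3 on the downstream side was lower in DFL than in PFL.

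HOX13 regions lay at 19 loci in the windows, 14 in the Hoxa stretch and 5 around Evx1. Both factors were called at 14, HOXA13 alone at 4 and HOXD13 alone at 1. Over the whole lists 62.0% of HOXA13 regions overlapped a HOXD13 region and 80.8% of HOXD13 regions overlapped a HOXA13 region. Every one of the 5 genes had a region of each factor in its window, which is common. Of the 14826 genes with at least 500 bp of H3K27ac in either piece, 10618 had a HOXA13 region and 9973 a HOXD13 region. No HOX13 region lay over the Hoxa13 gene body. The nearest to the Hoxa13 start were a HOXA13 region 1.51 kb upstream, with 58 fragments, and a HOXD13 region 5.20 kb upstream in Hottip, with 26 fragments.

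A pair of sites exceeded the rest. The site in the Hoxa11 intron, over the first exon of Hoxa11os (chr6:52244369-52245142), had a HOXA13 pileup of 567 fragments and a fold of 10.5, and ranked 26th of 66761 regions by pileup. Its HOXD13 pileup was 380 fragments with a fold of 9.09, at rank 81 of 52660. The site in Hoxa9 (chr6:52226114-52226948), in sequence annotated in part as untranslated, had 437 fragments of HOXA13 (fold 7.47, rank 77) and 490 of HOXD13 (fold 8.09, rank 32). Its HOXA13 region lay 422 bp from the RefSeq start of Hoxa9. The scaled HOXA13 pileup was thus the higher at the Hoxa11 site (92.9 against 49.3), and the scaled pileups were closer at the Hoxa9 site (71.6 against 63.6). Medians over all regions were 4.42 for HOXA13 and 4.02 for HOXD13. The scale adjusts for depth and not for the antibody, so these values do not rank the binding of the factors. Around Evx1, scaled HOXA13 pileups were 3.77 to 11.3, with the highest downstream at chr6:52321237-52321990, a locus that overlapped the edge of the H3K27me3 regions of both pieces, with its HOXA13 summit outside them. The Evx1 intron site (chr6:52314506-52315054) followed with 54 fragments of HOXA13 and 50 of HOXD13.

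**Figure D4:**
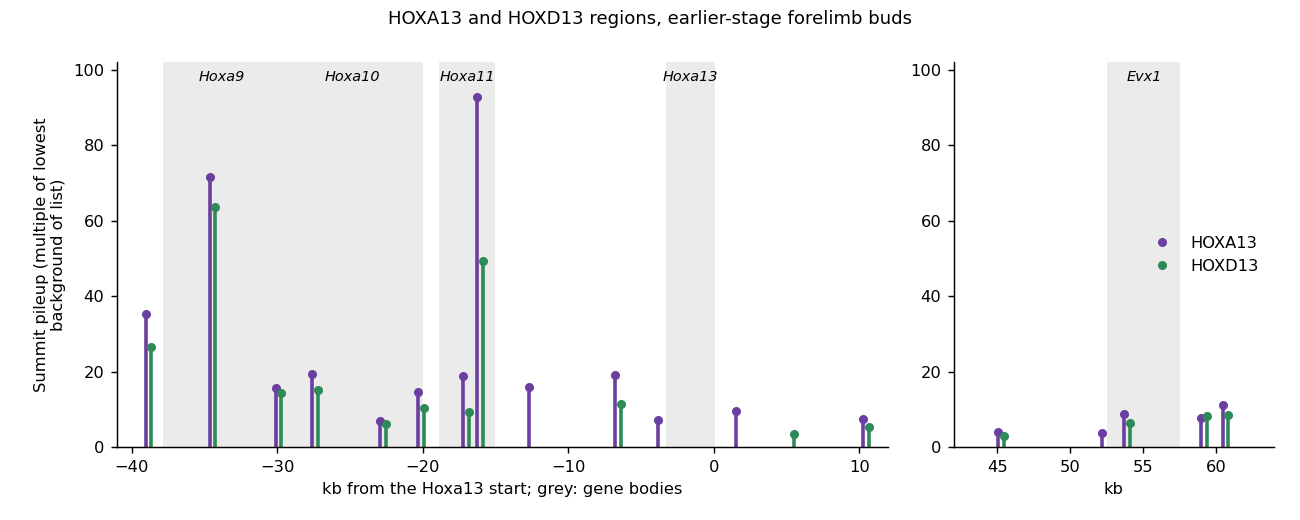
Stems give the scaled summit pileup of HOXA13 (purple) and HOXD13 (green) regions by distance in kb from the Hoxa13 start, with the colours shifted slightly apart so that both can be seen. The sites in Hoxa9 and in the Hoxa11 intron reach 71.6 and 92.9 for HOXA13, and no stem falls within the Hoxa13 gene body.

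Neither of the strongest sites held CAATAAA or CGTAAA within 50 bp of its HOXA13 summit, as the Hoxa11 sequence above shows. Of 18 HOXA13 windows 4 held CAATAAA and 2 held CGTAAA. Over the whole list these were found in 10.7% and 3.64% of summit windows, and in 2.50% and 0.694% of windows placed 5 kb away. The window in the Hoxa10 intron held both, and the window nearer the Hoxa10 start held CAATAAA on each strand. Upstream of the Evx1 start, where HOXA13 was called with only 23 fragments (chr6:52313218-52313473), the match was centred 21 bp from the summit.

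HOX13 and H3K27ac were then set side by side. Of the 23 DFL H3K27ac regions, 9 overlapped a HOX13 region, or 39.1% (Wilson 95% interval 22.2 to 59.2%), and 38.7% did so over the whole DFL list. Of the 16 PFL regions, 3 did (18.8%, 6.59 to 43.0%), where the whole PFL list had 30.5%. The shares in the windows were thus within counting error of those of their lists. The strongest site, in the Hoxa11 intron, shared only 27 bp of its edge with a DFL H3K27ac region, while the PFL-only H3K27ac region there (261 bp) lay wholly inside it. The Hoxa9 site overlapped no H3K27ac region in either piece. H3K27ac regions ended just before it, at chr6:52226052 in DFL and chr6:52225977 in PFL. Their scaled local backgrounds were 18.8 and 24.1, so the missing call does not show a missing mark. Of the 19 HOX13 loci, 5 had their summit inside a DFL H3K27ac region and 1 inside a PFL region, which was the Hoxa10 site with CAATAAA on each strand. Over all 76732 HOX13 loci, the shares were 17.8% for DFL regions and 18.9% for PFL regions. HOX13 overlapped 2 of the 3 DFL-only H3K27ac regions around Evx1, one of them over the Evx1 start.

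CTCF was called at almost the same places in the pieces. There were 9 regions in DFL and 8 in PFL, and all 8 PFL regions were shared. Over whole lists, 11.3% of DFL and 8.21% of PFL CTCF regions were called in 1 piece alone. Of the shared regions, the strongest lay at the Hoxa7 side (chr6:52221544-52222294), with 268 fragments in DFL and 283 in PFL and a fold of 18.0 in each. A similar one lay over the Hoxa10 first exon (chr6:52240274-52240826), with 257 and 265 fragments. The region between Hoxa11 and Hoxa13 had 148 and 142 fragments, the region 9.86 kb upstream of the Hoxa13 start 122 and 142, and the region upstream of Evx1 72 and 78. Scaled ratios ran from 0.73 to 1.195, around a median of 1.10 over 48391 loci, and the exact interval included 1 for all 8. Intervals for the weakest of them were wide, 0.43 to 1.23 for the region in Hoxa11os with 26 and 40 fragments.

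**Figure D5:**
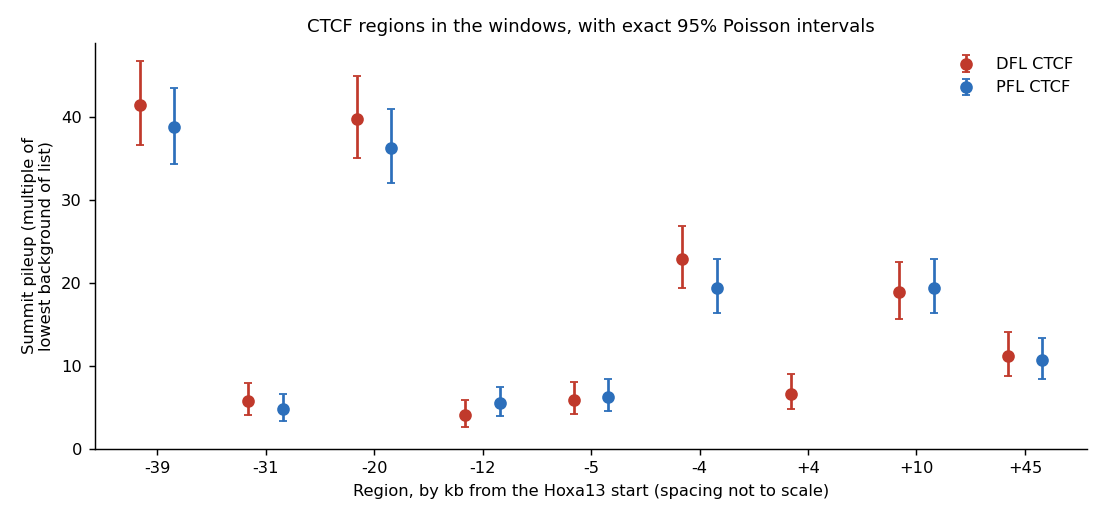
Points are the scaled summit pileups of the CTCF regions in DFL (red) and PFL (blue), ordered by kb from the Hoxa13 start, with exact 95% Poisson intervals. Intervals of the pieces overlap at all 8 shared regions, and the region 4.11 kb upstream of the Hoxa13 start is in the DFL list alone.

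The 1 CTCF region called in DFL alone lay in the Hottip intron (chr6:52264842-52265131), between DFL-only H3K27ac regions, with 43 fragments and a fold of 5.89. A PFL site with the same scaled pileup and local background would have reached a −log10 p of 24.4, against a lowest value of 3.37 in that list. That concerns depth alone and not what PFL carried. CNAGNNGGC was found at 2 of 9 DFL windows, where 24.5% of all DFL CTCF windows and 3.70% of windows 5 kb away held it. The matches were CGAGATGGC on the minus strand at Hoxa10 and CGAGGTGGC on the plus strand between Hoxa11 and Hoxa13, so that the letters face opposite ways. Of the 8 PFL CTCF regions 5 overlapped a HOX13 region, where 12.6% of the PFL list did. The same 5 sites did so in DFL, namely those on the Hoxa7 side, at the Hoxa10 start, downstream and upstream of Hoxa13, and upstream of Evx1.

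Posterior genes of other Hox clusters were compared by the same rules. Of the posterior HoxD genes with Evx2, 1 of 6 leaned to DFL and 1 to PFL by H3K27ac. All 5 posterior HoxC genes leaned to DFL, with medians of 1882 bp in DFL and 0 in PFL. Hoxb13 and Hoxb9 had less than 500 bp in either piece. Genes of a cluster share windows, and the difference between the lists was not tested.

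The genes with the most similar covered lengths over all 8 lists were found by Euclidean distance of log2(covered bp + 100). For Evx1 these were Fam163a, Gfra3 and Dlx2, at distances of 1.45 to 2.16 where the median gene was at 8.84. Adam19, Tet1 and Lrrfip1 were the nearest to Hoxa13, at up to 1.33 against a median of 6.41. Those nearest to Hoxa11 were Tspan12, Synpo and Adgra2, those nearest to Hoxa10 were Fzd2, Sh3bp4 and Fstl1, and those nearest to Hoxa9 were Vcl, Zfp704 and Axin2. Unlike Hoxa13, its 3 nearest genes had longer H3K27ac coverage in PFL than in DFL (for Adam19, 4614 bp in DFL and 6096 bp in PFL).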

How the data were processed

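Processing tools given in the labels are cutadapt, Bowtie, SAMtools and MACS2, and the build is mm10. According to the study's methods, peaks were called for each library with no control, at a q-value of 0.05 and keeping 1 read per position, and the HOX13 libraries were paired-end. Each deposited line holds a peak interval, the fold (the authors' ratio of summit pileup to local background), the −log10 p and −log10 q that the authors' caller gave it, and the summit offset in bp. Deposited lists give no read totals. Their lowest backgrounds, of 3.06 to 12.5 fragments, stand for depth.

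Lines of autosomes and the X were merged where they overlapped. Pileup and background were solved from fold and −log10 p, and pileups were whole within 0.02 for at least 99.9% of lines. The solver was tested on simulated data. Shares have Wilson and ratios exact conditional binomial 95% intervals. Genes came from GENCODE vM21 and sequence from GRCm38. Python 3.11.15, scipy 1.17.1 and pandas 2.3.3 were used.

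Members, lists and rules were chosen with earlier results of these data known. Named genes were the 5 members, posterior Hox lists of the other clusters and the 3 nearest genes of each member. A further list fixed for comparison is not reported here. Summit pairing, transferred pileups and the comparison with each list's highest pileup were added after these values were seen.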

Additional observations from a re-analysis of the deposited data

How the results depend on the processing

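No paired analysis was possible because each mark and piece had 1 library and no test was run. The H3K27ac share of covered length in DFL (65.5%) ran from 56.5% with a fold of at least 2 to 68.9% with lists of equal length, and the CTCF share from 49.9% to 53.8%. The H3K27me3 share (40.4%) rests on few regions. It was 100% with a fold of at least 2, and 0% both within 5 kb of the start and over gene bodies alone. With a −log10 q of at least 5, 100% of PFL H3K27ac regions (8 of 8) and 100% of PFL H3K27me3 regions (1 of 1) were shared with DFL. The HOX13 share of DFL H3K27ac regions (39.1%) was 66.7% (2 of 3) with a fold of at least 2 and 8.70% (2 of 23) when at least 0.5 of a region's length had to be overlapped. With a fold of at least 2, no DFL H3K27ac region of the Hoxa13 window was left and 1829 bp of PFL regions were. In all, 34 of the 41 summary values over the windows stayed within the interval set for the value as reported. So did 38 of the 43 values of single genes. For covered-length shares that interval was the Wilson interval of the share of region counts, not of length (43.4 to 72.9% beside the 65.5%). With few regions these intervals were wide, so staying inside them is a weak check. Pileups near the ceiling of the H3K27ac lists limit what these levels can show, and leaving out a replicate was not possible with 1 library each.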
